A study of Mus musculus with 6 samples.

Results

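The SNARE and sorting nexin genes are described here in mouse bone marrow macrophages early in their conversion to osteoclasts, the cells that resorb bone. The members are the genes whose single symbol in the platform annotation is Stx, Stxbp, Vamp, Snap or Snx followed by a number, and there were 62 of them among the 18193 genes with a probe set of a single symbol. The brightest probe set of a gene, by mean log2 intensity over the 6 arrays, stands for it. Knockin (KI) cells were compared with wild-type (WT) cells, 3 arrays for each genotype. Both genotypes were of the C57BL/6 strain, and all cultures were kept for 24 hours in 44 ng/ml M-CSF plus 100 ng/ml RANKL. M-CSF keeps the precursors alive, and RANKL acts through its receptor RANK to turn them into osteoclasts. The series title names the IVVY motif of RANK, but the altered residues, the age and sex of the mice and any selection marker of the knockin allele are not stated in the labels, and no untreated cells were analysed here. Nothing in the labels says whether the arrays of a genotype came from separate mice, so p-values measure the spread between these samples, which may be technical.

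SNARE proteins carry out the last step of vesicle traffic, the merging of membranes. A VAMP on the vesicle zips together with a syntaxin and a SNAP on the target membrane, and Sec1/Munc18 proteins such as Stxbp2 and Stxbp3 hold or assemble the syntaxin. Sorting nexins share a PX domain that binds phosphoinositides of endosomes. Many of them shape tubules or select cargo that is sent back to the cell surface or the Golgi instead of to the lysosome. Osteoclasts depend on such traffic, because they fuse lysosome-related vesicles with the bone-facing membrane to make the ruffled border. Snx10 has a known part in this, since loss of function of the human gene causes osteopetrosis.

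Total RNA was labelled from its 3' end and hybridised to Affymetrix mouse expression arrays, and the deposited value of a probe set is an intensity on a linear scale. Array medians lay between 83.0 and 84.8, and arrays correlated with each other at 0.972 to 0.998 over genes. The first principal component held 83.4% of the variance and separated the genotypes, with KI 1 (39.1) and WT 1 (-47.9) farthest out within their groups. All differences below are KI minus WT on the log2 scale, after a floor of 16 on the intensity. Adjusted p-values are those of limma with the Benjamini-Hochberg method over all genes, and a difference is called higher or lower where the adjusted p is under 0.05. Values are measured in whole cultures, where fewer cells of a type and less RNA per cell cannot be told apart.

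Of the 62 members, 21 (33.9%) were higher in KI cells, against a background of 11.9% of all genes, and 2 (3.23%) were lower, against 14.9% (either direction, 26.8% of all genes). The other 39 did not pass the test, and without KI 3 the counts were 12 higher and 2 lower. The median difference was 0.19 over the members and -0.0013 over all genes. The KI and WT arrays did not overlap for 32 members with KI higher (51.6%, background 20.5%) and for 4 with KI lower (6.45%, background 24.7%). At 1.5-fold or more, 10 members were higher (background 6.1%) and 2 lower (background 7.11%). The members were also brighter than most genes: 56 of 62 had a mean above the median of all probe sets, and among all genes above it 17.8% were called higher and 23.1% lower. The 6 members at or under that median were Stx19, Snap25, Snap91, Stxbp6, Snx31 and Snx22, and none of them passed. Both members called lower belong to the SNARE side, Stx11 and Stxbp3. The 30 sorting nexins had 11 higher and none lower with a median difference of 0.28, and the 32 SNARE-side genes had 10 higher and 2 lower with a median of 0.15 (4 and 2 without KI 3). Under older spike-in scaling these counts were 3 and 3 for the sorting nexins and 0 and 7 for the SNARE side, and no test of the difference between these sets was made.

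**Figure D1:**
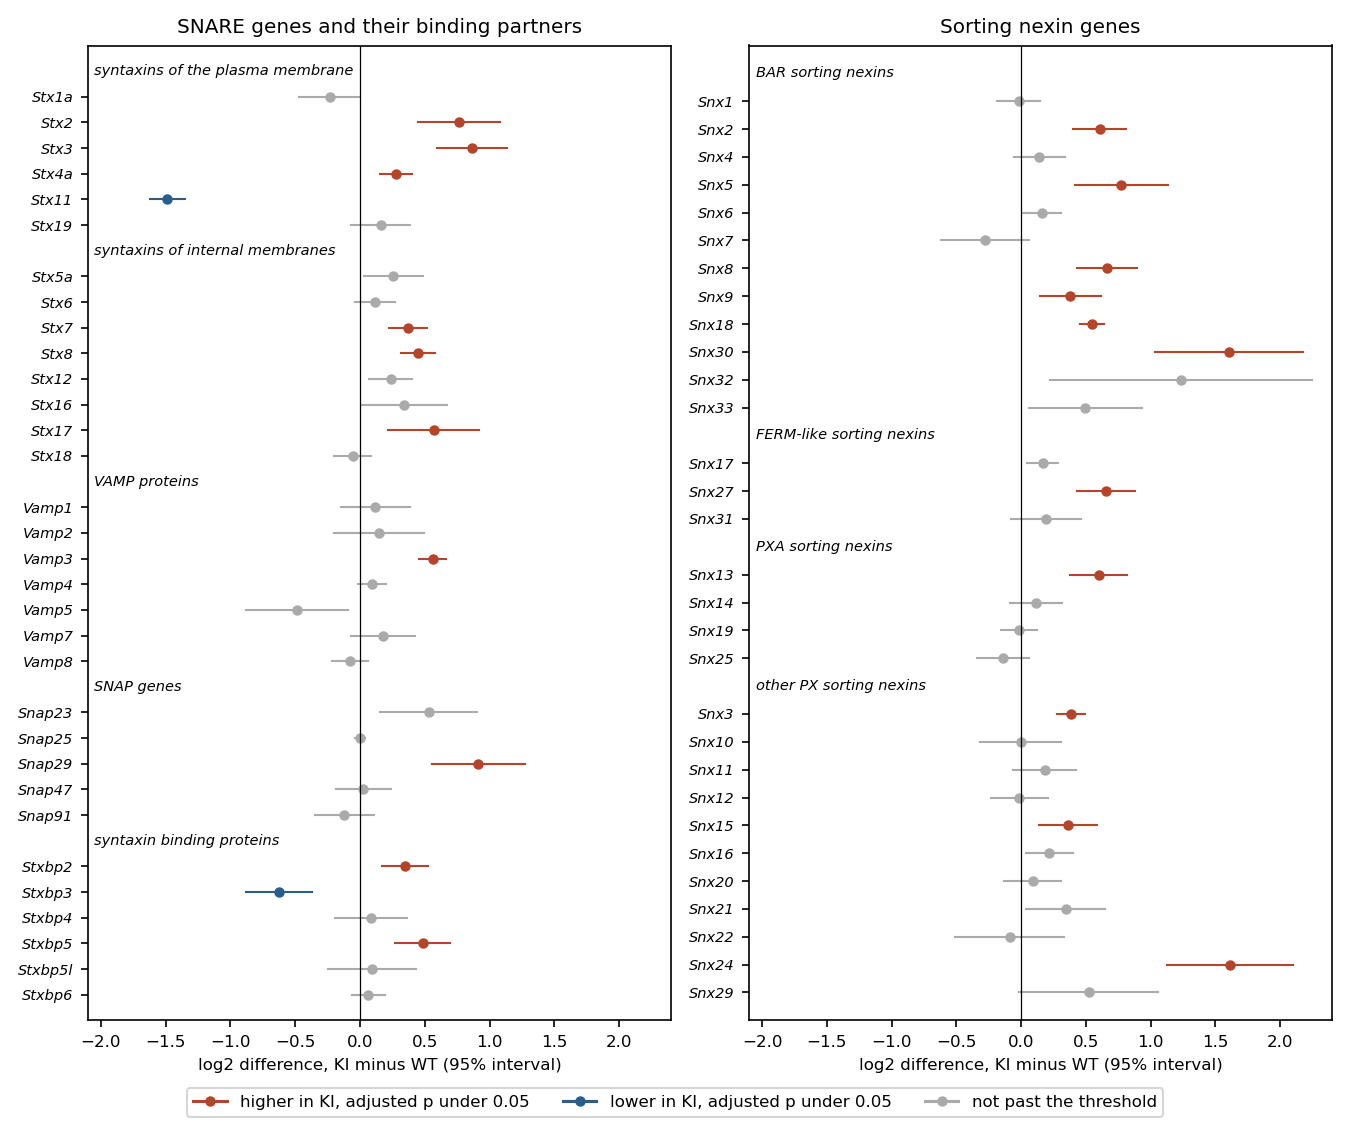
Log2 difference, KI minus WT, of each of the 62 members with its 95% interval (3 arrays per genotype), grouped by protein class, with SNARE genes and their binding partners on the left and sorting nexins on the right. Of the coloured points 21 lie right of 0 and 2, Stx11 and Stxbp3, lie left of it; under spike-in scaling the counts are 15 and 6, and under older spike-in scaling 3 and 10.

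These directions are relative to the scale on which the authors deposited the values. Control transcripts added in fixed amounts at hybridisation give another scale, and on the deposited scale they were brighter on the KI arrays, with mean log2 intensities of 11.51, 11.35 and 11.44 on the KI arrays, against 11.14, 11.28 and 11.26 on the WT arrays. Older probe sets of the same control transcripts were at 11.09, 10.93 and 11.04 on the KI arrays, against 10.40, 10.84 and 10.24 on the WT arrays. Scaling to the first set (spike-in scaling) moved the median of all genes to -0.20 and that of the members to -0.0068, with 15 members called higher and 6 lower (background 7.06% and 27.3%). Scaling to the second (older spike-in scaling) moved the median of all genes to -0.51 and that of the members to -0.30, with 3 members higher and 10 lower (background 2.31% and 45%). The median of the members lay above that of all genes on each of the 3 scales. Spike-in and older spike-in scaling shift all values of an array together, so this gap was nearly fixed in advance and is no added support. The sign of the smaller differences depended on the scale. Of the 23 called members, 17 kept their call and direction under spike-in scaling and 4 under the older one: Stx11, Stxbp3, Snx24 and Snx30. Stx4a, Stx7, Stxbp2, Snx3, Snx9 and Snx15 lost the call under spike-in scaling, and these 6 with Stx8 and Stxbp5 turned negative under the older one.

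**Figure D2:**
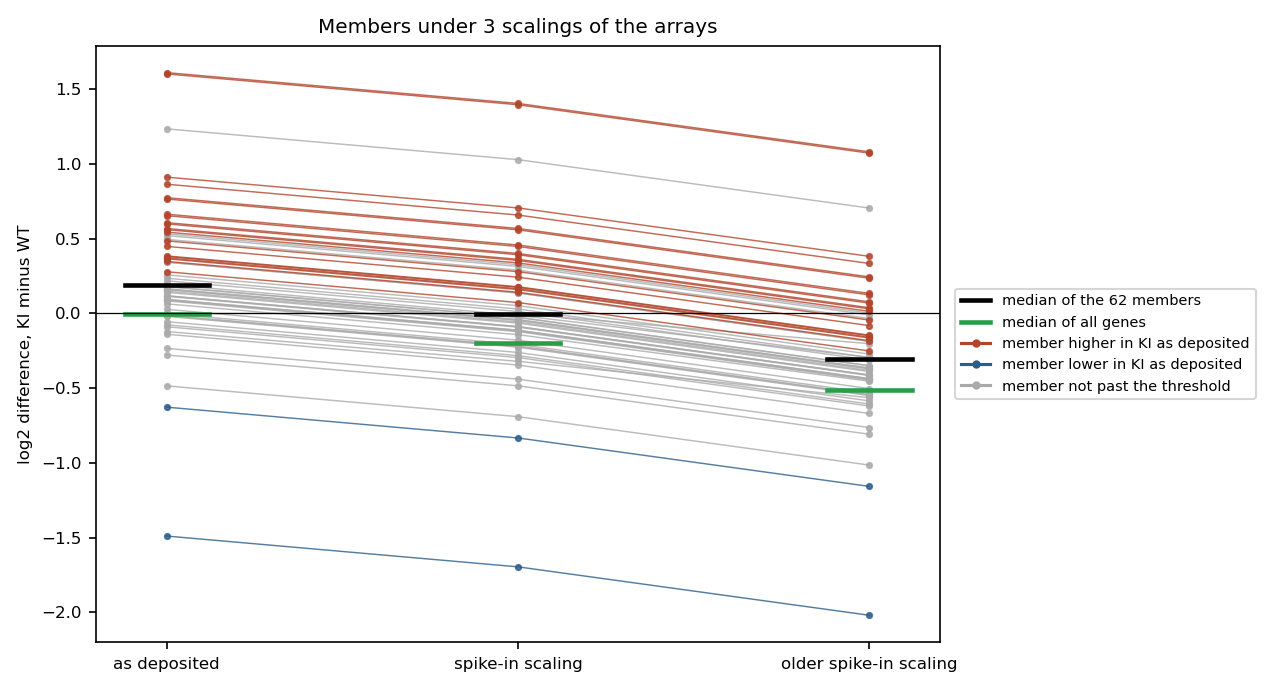
Log2 difference, KI minus WT, of the 62 members (thin lines) on the deposited scale and after scaling to 2 sets of hybridisation controls, with the median of the members and of all genes as thick bars. The medians are 0.19 and -0.0013 as deposited, -0.0068 and -0.20 after spike-in scaling, and -0.30 and -0.51 after older spike-in scaling.

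Stx11 had the largest fall among the members. It encodes a syntaxin without a membrane span that is needed for the release of cytotoxic granules, and loss of the human gene causes familial haemophagocytic lymphohistiocytosis. Its brighter probe set had intensities of 329.5, 319.6 and 320.4 on the KI arrays, against 875, 919 and 929 on the WT arrays. Its dimmer probe set had intensities of 180.1, 180.5 and 181 on the KI arrays, against 411, 369 and 454 on the WT arrays. In both probe sets the KI arrays lay close together and far below every WT array. The brighter one was 2.81-fold lower in KI cells, a log2 difference of -1.49 (SE 0.073, adjusted p = 0.00020 over 22518 probe sets above the median), and the dimmer one was 2.27-fold lower, a difference of -1.18 (SE 0.10, adjusted p = 0.00054). Both probe sets stayed lower, with an adjusted p under 0.05, in every alternative computed, including each scaling and each array left out. Among the 23 called members, Stx11 was the 1 whose call and direction held in all of the alternatives at the gene level.

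The 250 bases before the start of Stx11, at chr10:12964260-12964509 on the minus strand of GRCm38.p6 (RefSeq), are shown because this gene had the largest fall, and hold none of the 3 motifs that are counted over all members further on.
Stx11: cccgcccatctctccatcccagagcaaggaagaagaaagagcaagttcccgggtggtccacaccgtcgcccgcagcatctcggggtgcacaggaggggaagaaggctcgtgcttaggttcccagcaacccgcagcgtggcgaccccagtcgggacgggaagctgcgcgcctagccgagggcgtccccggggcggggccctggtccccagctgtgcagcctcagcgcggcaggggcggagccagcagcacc

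Of the other 5 syntaxins of the plasma membrane, 3 rose on the deposited scale (2 under spike-in scaling, 0 under the older one). The share called higher over all genes was 11.9% as deposited, 7.06% under spike-in scaling and 2.31% under the older one. Stx3, which acts in granule release and at apical membranes, was at 10.82, 11.09 and 11.15 on the KI arrays, against 10.28, 10.11 and 10.08 on the WT arrays. Stx2, also called epimorphin, was at 11.25, 11.16 and 11.20 on the KI arrays, against 10.16, 10.56 and 10.60 on the WT arrays. For both genes every KI array lay above every WT array, and WT 1 was the lowest array for Stx2. The difference was 0.86 for Stx3 (1.82-fold, SE 0.11, adjusted p = 0.0059). It was 0.77 for Stx2 (1.70-fold, SE 0.13, adjusted p = 0.012), and this call was lost without KI 3 (adjusted p = 0.052). Stx4a, a widely expressed syntaxin of surface delivery, differed by 0.28 (SE 0.049, adjusted p = 0.014), but by -0.25 under older spike-in scaling, and its call was also lost without KI 3 (adjusted p = 0.056). Stx1a, known from neurons, was at -0.23 (adjusted p = 0.13), and Stx19 was at 0.16 (adjusted p = 0.27). Stx2 and Stx3 remained higher under spike-in scaling, at 0.56 and 0.66.

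The partners that bind these syntaxins moved in both directions. Stxbp3, or Munc18c, is the Sec1/Munc18 partner of syntaxin 4, and was at 11.78, 11.68 and 11.49 on the KI arrays, against 12.14, 12.30 and 12.40 on the WT arrays. Every KI array was below every WT array, with KI 3 the lowest. The difference was -0.63 (1.54-fold lower, SE 0.10, adjusted p = 0.011), and its second probe set gave -0.74 (adjusted p = 0.012 over probe sets). Stxbp2, or Munc18-2, binds syntaxin 11 and syntaxin 3, and human mutations in it cause the same immune disease as those in STX11. It differed by 0.35 (SE 0.072, adjusted p = 0.022) on the deposited scale, but by -0.18 under older spike-in scaling, and the call was lost without WT 2, KI 1, KI 2 or KI 3 (adjusted p 0.057 to 0.070). Stxbp5, or tomosyn, which competes with VAMPs for syntaxin, differed by 0.49 (SE 0.085, adjusted p = 0.014), but by -0.045 under older spike-in scaling, and was lost without KI 1 or KI 3 (adjusted p 0.051 to 0.061). Stxbp4, Stxbp5l and Stxbp6 lay between 0.064 and 0.094 and did not pass.

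**Figure D3:**
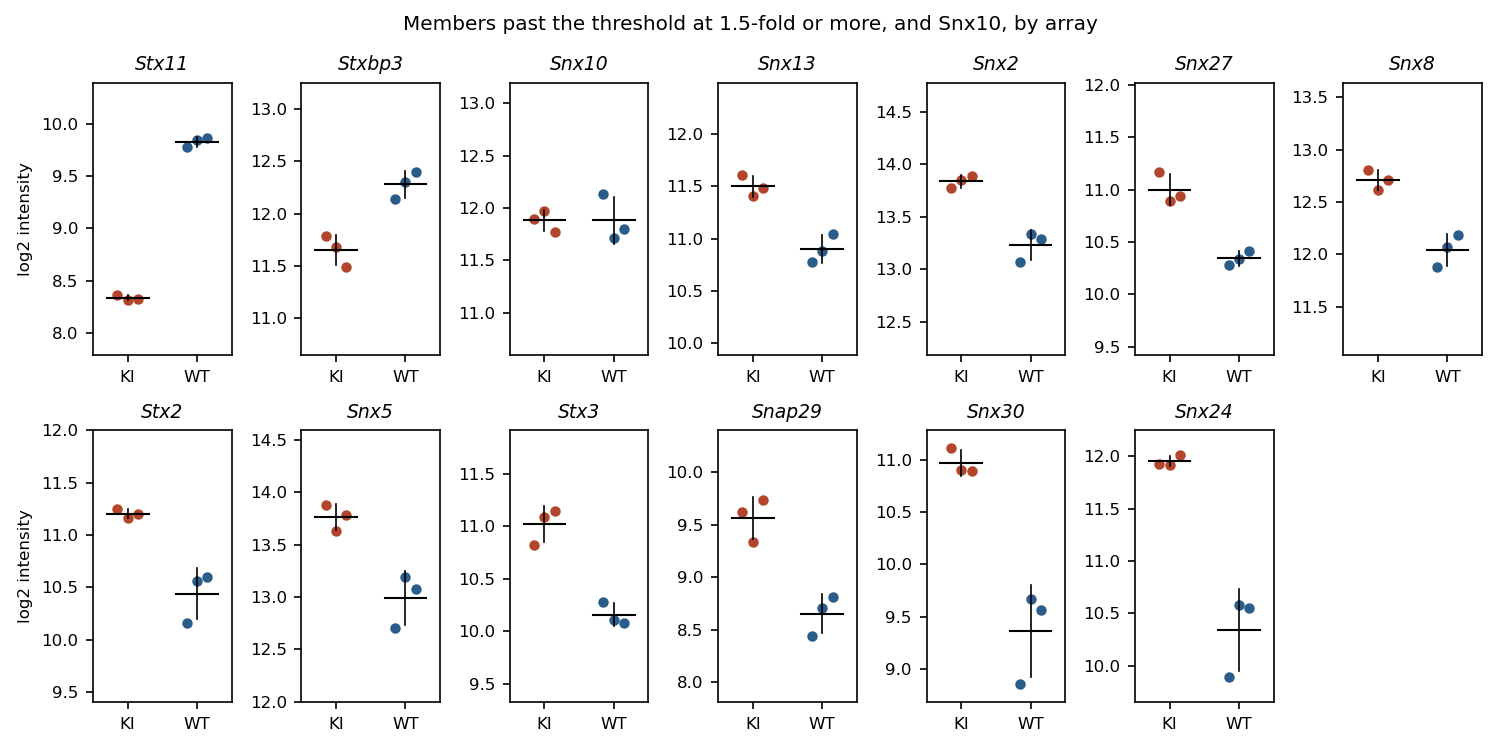
Log2 intensity by array of the 12 members called at a log2 difference of at least 0.58 (1.5-fold) and of Snx10, with KI left and WT right, a horizontal bar for the mean and a vertical bar for the SD (3 arrays each). KI and WT arrays are apart in every panel but that of Snx10. KI lies below WT for Stx11 and Stxbp3 and above it for the other 10. These directions are the same under spike-in and older spike-in scaling. Under the older one only Stx11, Stxbp3, Snx24 and Snx30 keep their call.

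Of the 8 syntaxins of endosomes, the Golgi and the endoplasmic reticulum, 3 were higher and none was lower on the deposited scale. The counts were 2 and 0 under spike-in scaling, 0 and 0 under the older one, and 1 and 0 without KI 3. Background shares as deposited were 11.9% higher and 14.9% lower over all genes. All 8 lay above the median of all probe sets, where these shares were 17.8% and 23.1%. Stx7 and Stx8 sit together in the SNARE complex of late endosomes and lysosomes. Stx7 was at 12.68, 12.66 and 12.66 on the KI arrays, against 12.18, 12.33 and 12.37 on the WT arrays. Stx8 was at 11.20, 11.13 and 11.25 on the KI arrays, against 10.70, 10.73 and 10.80 on the WT arrays. The groups did not overlap for either gene. Stx7 differed by 0.37 (SE 0.060, adjusted p = 0.011) on the deposited scale and by -0.16 under older spike-in scaling, and without KI 3 its adjusted p was 0.0501. Stx8 differed by 0.45 (SE 0.052, adjusted p = 0.0050) on the deposited scale and by -0.082 under older spike-in scaling.

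Stx17, the syntaxin of autophagosomes, differed by 0.57 (SE 0.14, adjusted p = 0.035). That call was lost when any array but WT 3 was left out (adjusted p 0.064 to 0.088), and averaging its probe sets gave 0.21 (adjusted p = 0.096). Stx12, of recycling endosomes, differed by 0.24 on the deposited scale and missed the threshold over all genes (adjusted p = 0.052), while both of its probe sets passed over probe sets. Stx5a, Stx6, Stx16 and Stx18, which act at the Golgi and the endoplasmic reticulum, lay between -0.055 and 0.34 and did not pass.

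Among the VAMPs, 1 of 7 was called, as higher, on the deposited scale. That share, 14.3%, was near the 11.9% of all genes and the 17.8% of genes above the median of all probe sets. Vamp3, or cellubrevin, carries recycling endosomes to the cell surface and was at 12.96, 12.88 and 12.91 on the KI arrays, against 12.39, 12.33 and 12.35 on the WT arrays. The 2 groups were apart by far more than the spread within either. The difference was 0.56 (SE 0.041, adjusted p = 0.0019), and its 4 tested probe sets gave 0.55 to 1.20. Under older spike-in scaling the difference was 0.030 and the call was lost (adjusted p = 0.92). Vamp5 was at 8.56, 8.45 and 8.61 on the KI arrays, against 9.36, 8.79 and 8.94 on the WT arrays, with WT 1 the highest array, and its difference of -0.48 missed the threshold over all genes (adjusted p = 0.076). Its brighter probe set passed as lower over probe sets (adjusted p = 0.038), and Vamp5 passed as lower under spike-in scaling (-0.69, adjusted p = 0.035) and the older one (-1.01, adjusted p = 0.0021). Vamp8 and Vamp7, the VAMPs of late endosomes and lysosomes, were at -0.076 (95% interval -0.21 to 0.06) and 0.18 (95% interval -0.07 to 0.43). Vamp1, Vamp2 and Vamp4 lay between 0.093 and 0.15 and did not pass.

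Of the 5 Snap genes, Snap29 was called, as higher (background 11.9% of all genes). It pairs with Stx17 and Vamp8 in the fusion of autophagosomes with lysosomes, and was at 9.62, 9.34 and 9.73 on the KI arrays, against 8.44, 8.71 and 8.81 on the WT arrays. All KI arrays were above all WT arrays. The difference was 0.91 (1.88-fold, SE 0.14, adjusted p = 0.010), but its 2 dimmer probe sets gave 0.37 and 0.34. Snap23, the widely expressed partner of Stx4a and Stx11 at the plasma membrane, was at 12.21, 11.98 and 12.11 on the KI arrays, against 11.26, 11.66 and 11.79 on the WT arrays. The groups were apart, with WT 1 the lowest, and the difference of 0.53 missed the threshold over all genes (adjusted p = 0.051), while its 3 probe sets passed over probe sets. Snap25, the neuronal form, was at or under the floor on all 6 arrays. Snap47, a widely expressed SNARE, and Snap91, an adaptor of clathrin coats that is no SNARE, were at 0.027 and -0.12.

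Sorting nexins with a BAR domain, which bends membranes into tubules, had 6 of 12 members higher and none lower on the deposited scale. The counts were 5 and 0 under spike-in scaling, and 2 and 1 under the older one. Shares over all genes were 11.9% higher and 14.9% lower as deposited. They were 7.06% and 27.3% under spike-in scaling, and 2.31% and 45% under the older one. All 12 lay above the median of all probe sets, where 17.8% of genes were higher and 23.1% lower as deposited. Snx30 was at 11.11, 10.90 and 10.89 on the KI arrays, against 8.86, 9.67 and 9.57 on the WT arrays. WT 1 was the lowest array by a wide margin, and all KI arrays lay above all WT arrays. The difference was 1.60 (3.04-fold, SE 0.23, adjusted p = 0.0080). Leaving out WT 1 gave 1.35 with an adjusted p of 0.0028. Its second probe set gave 1.11. Snx7 and Snx4, which act in endosomal recycling and autophagy, where Snx4 forms dimers with Snx7 or Snx30, were at -0.28 (adjusted p = 0.20) and 0.14 (adjusted p = 0.25).

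The nexins that work beside retromer, the coat that retrieves receptors from endosomes, were not alike. Snx5 was at 13.88, 13.63 and 13.78 on the KI arrays, against 12.70, 13.19 and 13.07 on the WT arrays. Snx2 was at 13.77, 13.86 and 13.89 on the KI arrays, against 13.07, 13.33 and 13.29 on the WT arrays. In both genes KI was above WT on every array, with WT 1 the lowest. Snx5 differed by 0.77 (1.71-fold, SE 0.14, adjusted p = 0.016), with all 5 of its tested probe sets higher, although the call over all genes was lost without KI 1 or KI 3 (adjusted p 0.056 to 0.064). Snx2 differed by 0.61 (1.52-fold, SE 0.081, adjusted p = 0.0069). Their usual dimer partners Snx1 and Snx6 did not pass, at -0.020 (95% interval -0.19 to 0.15) and 0.16 (95% interval 0.02 to 0.31). Snx32, a close relative of Snx5 and Snx6, was at 7.80, 7.53 and 7.75 on the KI arrays, against 5.52, 6.93 and 6.92 on the WT arrays. WT 1 was far below the other arrays. The difference of 1.23 did not pass over all genes (adjusted p = 0.077), while the probe set of Snx32 passed over probe sets (adjusted p = 0.032). Leaving out WT 1 gave 0.77, which passed (adjusted p = 0.011).

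Snx8, an endosomal nexin that acts in transport to the Golgi, was at 12.80, 12.61 and 12.71 on the KI arrays, against 11.88, 12.07 and 12.18 on the WT arrays. The groups did not overlap, and the difference was 0.66 (1.58-fold, SE 0.094, adjusted p = 0.0078). Snx9, Snx18 and Snx33 carry an SH3 domain and work with dynamin at forming vesicles. Snx18 was at 11.34, 11.33 and 11.35 on the KI arrays, against 10.79, 10.78 and 10.81 on the WT arrays, with a spread within each group far below the gap between them. It differed by 0.54 (SE 0.037, adjusted p = 0.0018), and its dimmer probe set by 0.20, which did not pass. Snx9 differed by 0.38 (SE 0.095, adjusted p = 0.035) on the deposited scale and by -0.15 under older spike-in scaling, and its call was lost when any array but WT 3 was left out (adjusted p 0.072 to 0.096). Snx33 differed by 0.50 and did not pass over all genes (adjusted p = 0.093), while its probe set passed over probe sets (adjusted p = 0.047).

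Snx27, 1 of 3 nexins with a FERM-like domain, was called, as higher (background 11.9% of all genes). Snx27 links retromer to cargo with PDZ-binding tails. It was at 11.17, 10.89 and 10.94 on the KI arrays, against 10.28, 10.34 and 10.42 on the WT arrays. KI 1 was the highest array and the groups did not overlap. The difference was 0.65 (1.57-fold, SE 0.089, adjusted p = 0.0071). Snx17, which retrieves integrins, was at 0.17 on the deposited scale (adjusted p = 0.059 over all genes and 0.035 over probe sets). It was at -0.041 under spike-in scaling, and Snx31 was at 0.19 on the deposited scale. Of the 4 nexins with a PXA domain, Snx13 was called, as higher (background 11.9% of all genes). Snx13 was at 11.61, 11.41 and 11.48 on the KI arrays, against 10.78, 10.88 and 11.04 on the WT arrays. Its arrays did not overlap between genotypes, and it differed by 0.60 (1.51-fold, SE 0.088, adjusted p = 0.0087), with 1.13 in its second probe set. Snx14, Snx19 and Snx25 lay between -0.14 and 0.11.

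The remaining 11 nexins, in which the PX domain was the class used here, had 3 higher (27.3%) and none lower on the deposited scale. The counts were 1 and 0 under spike-in scaling, and 1 and 1 under the older one. Background shares as deposited were 11.9% higher and 14.9% lower over all genes, and 17.8% and 23.1% over genes above the median. Snx24 had the largest difference of all members, in a single probe set whose suffix marks it as able to match several transcripts. It was at 11.93, 11.92 and 12.01 on the KI arrays, against 9.89, 10.58 and 10.55 on the WT arrays. The KI arrays lay close together and WT 1 was again the lowest. The difference was 1.61 (3.05-fold, SE 0.19, adjusted p = 0.0054). Leaving out WT 1 gave 1.39 with an adjusted p of 0.0017. Snx3, a cargo adaptor of retromer that brings back the Wnt carrier Wntless, was at 13.86, 13.88 and 13.90 on the KI arrays, against 13.43, 13.53 and 13.53 on the WT arrays. The groups were apart, and it differed by 0.38 (SE 0.044, adjusted p = 0.0047) on the deposited scale and by -0.15 under older spike-in scaling. Snx15 differed by 0.37 (SE 0.090, adjusted p = 0.034) on the deposited scale and by -0.16 under older spike-in scaling, and lost its call with any 1 array left out (adjusted p 0.061 to 0.096). Snx29 was at 8.22, 7.47 and 7.51 on the KI arrays, against 7.27, 7.17 and 7.20 on the WT arrays; KI 1 was far above the rest and the difference of 0.52 did not pass (adjusted p = 0.14).

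Snx10, the nexin with a known part in osteoclasts, showed no difference that passed the test. Its brighter probe set had intensities of 3816, 4023 and 3492 on the KI arrays, against 4503, 3357 and 3556 on the WT arrays. Its dimmer probe set had intensities of 242, 165 and 181 on the KI arrays, against 217, 173 and 169 on the WT arrays. KI and WT arrays overlapped in both, with WT 1 the highest array of the brighter probe set and KI 1 the highest of the dimmer. The brighter probe set differed by -0.0013 (95% interval -0.29 to 0.28, adjusted p = 0.99 over probe sets) and the dimmer by 0.063 (95% interval -0.34 to 0.47, adjusted p = 0.79). The interval of the brighter probe set covers changes of up to 0.29 in size on the log2 scale, and its value without WT 1 was 0.13. The suffixes of both probe sets mark them as able to match more than 1 transcript, so isoforms and similar sequences could not be told apart.

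Probe sets gave a check within members. The 62 genes had 134 probe sets, of which 109 lay above the median and were tested. Of these, 51 were higher and 6 lower on the deposited scale (background 19.3% and 25.6% of 22518 probe sets). Of 30 members with more than 1 tested probe set, 23 had the same call in all of them. For Snap47, Snx10, Snx12, Snx19, Snx21, Snx29, Stx5a, Stx6, Stx18 and Vamp7, the same call means only that no probe set passed. Among these, Stx6 ranged from -0.17 to 0.23 and Snx29 from 0.027 to 0.52. The 7 members whose calls differed were Snx6, Snx9, Snx16, Snx18, Stx17, Stxbp5 and Vamp4. Snx6 had calls in both directions, with 0.32 (adjusted p = 0.0083) in one probe set and -0.31 (adjusted p = 0.049) in another. The second of these is the one probe set of Snx6 whose suffix does not mark it as able to match several transcripts. The brightest probe set of Snx16 gave 0.22 and its nearly equally bright neighbour 0.44, so that the rule of the brightest probe set decided that gene's call. With ambiguous probe sets removed, that is those whose suffix marks several possible transcripts, 20 of the 23 called members had a value. All 20 kept their call, but only Vamp3 was then read from another probe set (1.20). The rest kept the same probe set, so their result was nearly fixed in advance and is no added support. The called members without a value were Stx4a, Stxbp2 and Snx24.

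**Figure D4:**
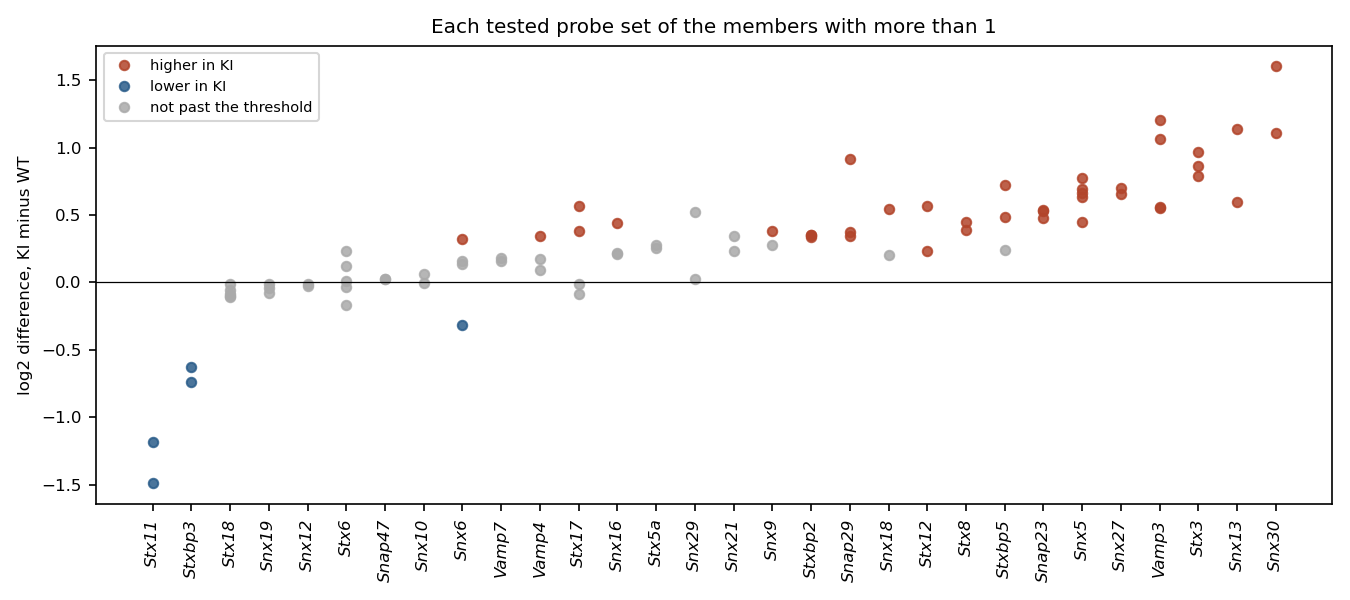
Log2 difference, KI minus WT, on the deposited scale, of each tested probe set of the 30 members with more than 1. Genes are ordered from left to right by the median over their tested probe sets. Both probe sets of Stx11 and of Stxbp3 lie below 0 and are called (the same under spike-in scaling at the gene level), both of Snx10 lie near 0, and Snx6 has 1 called probe set on each side of 0.

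Promoters were compared because many members moved together. RefSeq start sites were found for 49 of the 62 members, with 59 windows of 250 bases before a start. Each was searched on both strands for 3 motifs, none of which can hold another. The E-box CACGTG, bound by basic helix-loop-helix factors such as Mitf and Tfeb, was in 10.2% of the member windows and 6.02% of all 32851 windows. The 6 genes that held it were Snx5, Snx8, Snx18, Stxbp2, Stx6 and Vamp4, of which 4 were higher on the deposited scale (Stxbp2 at -0.18 under older spike-in scaling). On the deposited scale 33.9% of all members and 11.9% of all genes were higher. The share higher among all genes with the motif was not computed, so this count does not link the motif to the rise. The AP-1 motif TGANTCA was in 3.39% of the member windows and 6.75% of all windows, in Snx10 and Snx29. The PU.1 motif GAGGAAGT was in 0 of 59 member windows and 2.44% of all windows. A match is a string in a window and no evidence of binding.

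The windows of the 3 sorting nexins that rose by over 0.5 and hold the E-box are shown with the motif in capitals, and that of Snx10 with its AP-1 motif in capitals for comparison. All are from GRCm38.p6. Snx5 is at chr2:144270573-144270822 (minus strand), Snx8 at chr5:140389309-140389558 (minus strand), Snx18 at chr13:113618565-113618814 (minus strand) and Snx10 at chr6:51523834-51524083 (plus strand, 1 of its 3 starts). The motif begins at -50 from the start in Snx5, at -100 in Snx8, at -186 in Snx18 and at -98 in Snx10.
Snx5: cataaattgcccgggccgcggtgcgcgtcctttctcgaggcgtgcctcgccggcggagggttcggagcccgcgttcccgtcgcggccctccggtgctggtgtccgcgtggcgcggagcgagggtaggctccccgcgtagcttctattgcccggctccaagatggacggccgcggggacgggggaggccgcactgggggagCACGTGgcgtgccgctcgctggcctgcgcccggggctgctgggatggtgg
Snx8: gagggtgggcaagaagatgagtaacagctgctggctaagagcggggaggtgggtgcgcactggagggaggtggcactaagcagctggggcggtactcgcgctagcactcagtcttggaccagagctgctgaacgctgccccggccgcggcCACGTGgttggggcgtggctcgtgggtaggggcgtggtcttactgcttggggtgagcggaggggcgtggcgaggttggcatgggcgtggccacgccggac
Snx18: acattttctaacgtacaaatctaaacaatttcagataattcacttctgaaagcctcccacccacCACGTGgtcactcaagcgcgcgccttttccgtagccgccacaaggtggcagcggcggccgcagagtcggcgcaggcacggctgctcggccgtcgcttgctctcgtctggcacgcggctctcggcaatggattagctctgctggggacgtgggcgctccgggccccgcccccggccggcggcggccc
Snx10: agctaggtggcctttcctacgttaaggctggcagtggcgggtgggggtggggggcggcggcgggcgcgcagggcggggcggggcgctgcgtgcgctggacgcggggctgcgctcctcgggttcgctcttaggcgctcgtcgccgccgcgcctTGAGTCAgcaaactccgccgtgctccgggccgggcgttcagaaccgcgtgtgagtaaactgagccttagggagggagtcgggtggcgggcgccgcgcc

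Genes that work with the members were counted in 4 lists. All of these genes lay above the median of all probe sets. Among all genes above it, 17.8% were called higher and 23.1% lower on the deposited scale. Over all genes the shares were 11.9% and 14.9% on that scale. They were 7.06% and 27.3% under spike-in scaling, and 2.31% and 45% under the older one. The retromer, WASH complex and retrieved cargo list had 11 of 18 genes higher and 2 lower on the deposited scale (8 and 2 under spike-in scaling, 3 and 3 under the older one), and 7 and 1 without KI 3. Washc5, a subunit of the WASH complex that builds actin on endosomes, differed by 0.71 (SE 0.044, adjusted p = 0.0013). Vps26a, of the retromer core, differed by 0.56 (SE 0.044, adjusted p = 0.0022), while the core subunits Vps29 and Vps35 were at 0.16 (adjusted p = 0.066) and 0.15 (adjusted p = 0.092) on the deposited scale and at -0.042 and -0.055 under spike-in scaling. Sortilin (Sort1), a retrieved receptor, differed by 1.43 (SE 0.15, adjusted p = 0.0042). The 2 genes called lower were the mannose 6-phosphate receptors that carry lysosomal enzymes: M6pr differed by -0.45 (SE 0.042, adjusted p = 0.0032), and Igf2r by -0.51 (SE 0.12, adjusted p = 0.033). The call of Igf2r was lost without WT 1, WT 3, KI 1, KI 2 or KI 3 (adjusted p 0.058 to 0.085). Ehd1, which acts in endosomal recycling, was at 10.91, 11.33 and 11.22 on the KI arrays, against 12.46, 11.61 and 11.59 on the WT arrays. Every KI array lay below every WT array, with WT 1 the highest, and the difference of -0.74 did not pass (adjusted p = 0.099); it was -0.45 without WT 1, and it passed as lower under older spike-in scaling (-1.27).

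The HOPS and CORVET complexes tether endosomes and lysosomes before SNAREs fuse them. Of 8 genes, 5 were higher and none lower on the deposited scale, 2 under spike-in scaling and none under the older one, and on the deposited scale all 8 had KI arrays above WT arrays (background 20.5%). The count was 2 without WT 1, WT 2, KI 1, KI 2 or KI 3. Plekhm1, an adaptor of lysosome fusion whose human gene is mutated in an osteopetrosis, differed by 0.98 (SE 0.090, adjusted p = 0.0030). Tgfbrap1, a CORVET subunit, differed by 0.93 (SE 0.14, adjusted p = 0.0087). Vps41 and Vps18 differed by 0.49 and 0.18 on the deposited scale and by -0.037 and -0.35 under older spike-in scaling, and lost their calls without any 1 array for Vps18 (adjusted p 0.053 to 0.14) and without any but WT 3 for Vps41 (adjusted p 0.0501 to 0.084).

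Other SNAREs, their chaperones and Sec1/Munc18 proteins had 4 of 26 genes higher and 3 lower on the deposited scale with a median of 0.01. These shares, 15.4% and 11.5%, were close to the 11.9% and 14.9% of all genes. Among genes above the median of all probe sets, where all 26 lie, the shares were 17.8% and 23.1%. The counts were 2 and 9 under spike-in scaling, and 0 and 12 under the older one. Without KI 3 the counts were 1 and 0, without WT 2 they were 2 and 2, and without KI 1, KI 2 or WT 3 they were 3 higher and 0, 1 and 1 lower. Syt11, a synaptotagmin that takes part in vesicle traffic of macrophages, differed by 1.12 (SE 0.14, adjusted p = 0.0060). Vps33a, the Sec1/Munc18 subunit of HOPS and CORVET, differed by 0.59 (SE 0.10, adjusted p = 0.013), which was lost without KI 3 (adjusted p = 0.051). Nsf, the ATPase that takes spent SNARE complexes apart, differed by -0.26 (SE 0.048, adjusted p = 0.016), which was lost without KI 1 or KI 3 (adjusted p 0.051 to 0.069). The other called genes were Bet1 (0.27) and Vipas39 (0.34), which turned negative under older spike-in scaling (-0.26 and -0.19), and Sec22b (-0.30) and Scfd2 (-0.67); their calls were lost without some arrays, with adjusted p of 0.074 to 0.095, 0.051 to 0.066, 0.0502 to 0.096 and 0.058 to 0.086 in that order.

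The enzymes that make or remove the phosphoinositides bound by PX domains had 6 of 14 genes higher and 1 lower on the deposited scale (4 and 1 under spike-in scaling, 1 and 1 under the older one; 3 and 1 without KI 1 or KI 3). Mtm1, myotubularin, which removes the 3-phosphate from endosomal lipids, was at 8.88, 8.85 and 8.75 on the KI arrays, against 10.34, 10.03 and 10.01 on the WT arrays. The groups were far apart, and the difference was -1.30 (2.46-fold lower, SE 0.11, adjusted p = 0.0024). Pikfyve, the kinase that makes the bisphosphate of late endosomes, differed by 0.87 (SE 0.12, adjusted p = 0.0079). Mtmr3 and Mtmr6, relatives of Mtm1, differed by 0.63 (adjusted p = 0.010) and 0.39 (adjusted p = 0.0065) on the deposited scale. Mtmr6 was at -0.14 under older spike-in scaling, and Mtmr3 at -0.021 when ambiguous probe sets were left out.

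**Figure D5:**
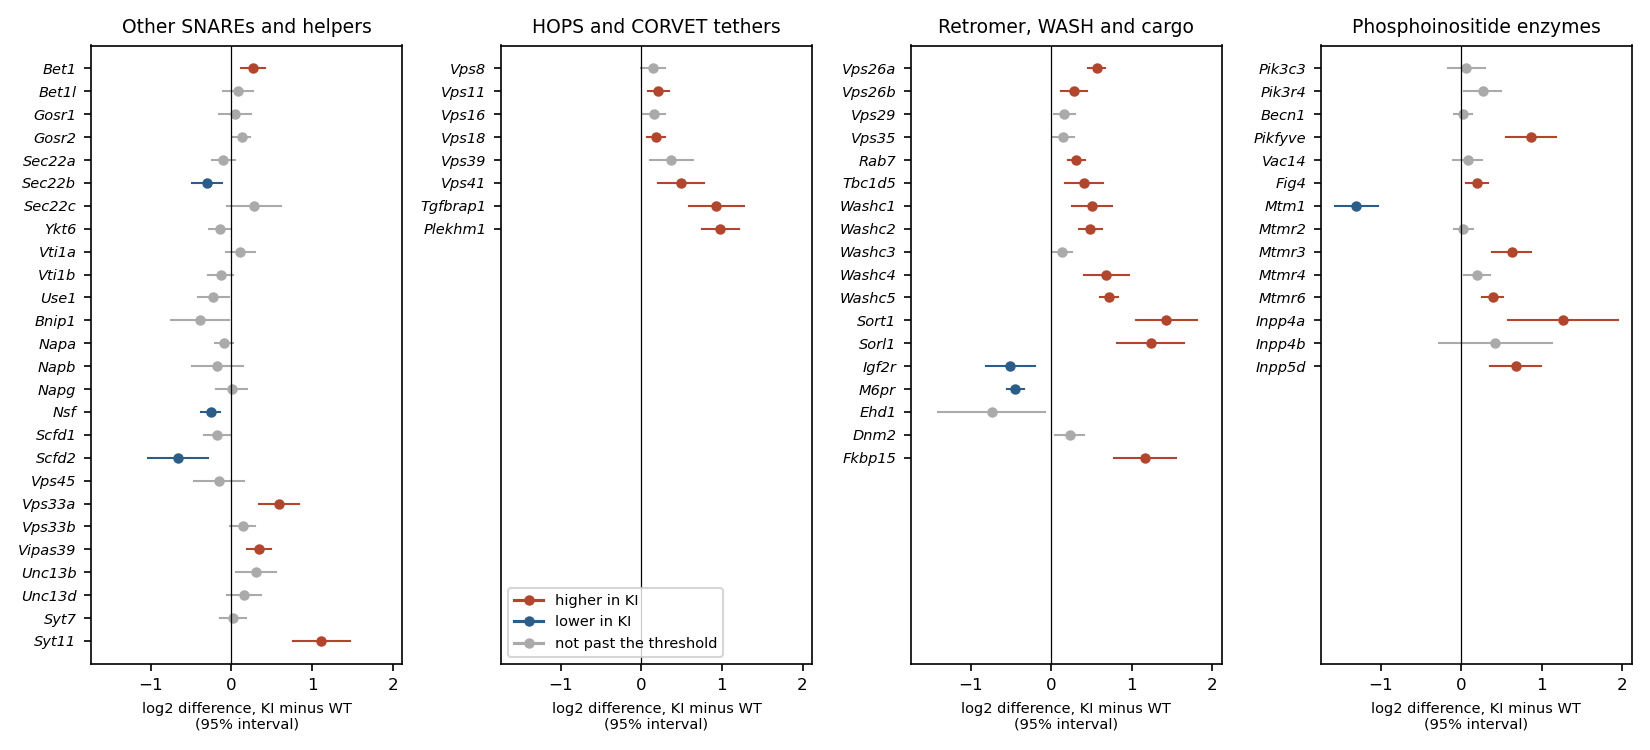
Log2 difference, KI minus WT, with its 95% interval (3 arrays per genotype) of the genes in 4 lists of partners on the deposited scale. The counts higher and lower are 4 and 3 of 26, 5 and 0 of 8, 11 and 2 of 18, and 6 and 1 of 14 from left to right; under older spike-in scaling they are 0 and 12, 0 and 0, 3 and 3, and 1 and 1.

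Markers of some cell types also differed between KI and WT cells. Over all genes, 11.9% were called higher and 14.9% lower on the deposited scale. Of 10 osteoclast markers, 7 were lower and none higher, and their summed intensity was 32701 to 36537 on the KI arrays, against 70544 to 81134 on the WT arrays. Mmp9 differed by -2.89, Nfatc1 by -0.997, Atp6v0d2 by -0.97 and Acp5 by -0.92, while Calcr was near the floor on all arrays. Of 9 macrophage markers, 8 were higher and none lower on the deposited scale (5 under spike-in scaling and 3 under the older one), with a summed intensity of 143880 to 149879 on the KI arrays, against 93729 to 116549 on the WT arrays; without KI 1, KI 2 or KI 3 none passed, and 3 passed without WT 2. Of 7 neutrophil and progenitor markers measured, S100a8 was called (0.84 on the deposited scale), with 4 calls without KI 2 and none without any other array, and the summed intensity was 21993 to 43495 on the KI arrays, against 15715 to 19724 on the WT arrays. Lists for B cells, T or NK cells, stromal cells and the erythroid lineage had no call on the deposited scale, and of the mast cell list Kit was lower (-0.50). For these summed levels 3 against 3 arrays allow no p below 0.1 in an exact permutation test, and the lists of macrophage, osteoclast, neutrophil and erythroid markers gave 0.1, the last with sums of 255 to 282 on the KI arrays, against 233 to 244.7 on the WT arrays. The part of cell makeup in the differences of SNARE and sorting nexin genes was not tested.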

How the data were processed

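The deposited value of each probe set is an intensity on a linear scale, which the authors made with Affymetrix Expression Console, per the submitters' processing notes; the sources used here do not give its version, summarisation or normalization. Of 45101 probe sets, 64 controls were left out; the platform annotation gave 1 symbol to 34945, several to 932 and none to 9160, and genes were named from the first only. All 62 members matched the RefSeq gene table. Intensities were floored at 16 (5.46% lay below) and log2 transformed. The comparison of KI with WT used lmFit and eBayes with trend (limma 3.58.1, R 4.3.3; two-sided), over 18193 genes by their brightest probe set and over 22518 probe sets above the median, with Benjamini-Hochberg adjusted p at 0.05. The number of arrays limits the precision.

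Values by array were given for Stx11, Snx10 and members called at 0.58 or more, with some others added after their values were seen, and partners by up to 4 smallest p-values of a list plus members a result turned on. The members, lists and tests were chosen with earlier results of these data known. Alternatives were 4 other scalings, a log2 addend of 32, filters, the variance prior, the probe set rule, a replicate block, the description number as a covariate and left-out arrays.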

Additional observations from a re-analysis of the deposited data

How the results depend on the processing

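Both Stx11 probe sets kept their direction and call in all 16 alternatives, while the counts of members moved with the scaling and with the number of arrays. Members called higher numbered 3 under older spike-in scaling, 2 with a replicate block, 9 with the number in the sample description as a covariate, and 12 to 23 with 1 array left out. Members called lower numbered 6 under spike-in scaling, 10 under the older one, 1 with the block, 1 with the covariate, and 2 with any 1 array left out. Over all genes, spike-in scaling gave 1284 higher and 4961 lower, the older one 421 and 8186, the replicate block 146 and 198, and the covariate 707 and 964. With 1 array left out, 894 to 1993 genes were higher and 1117 to 2388 lower, the fewest without KI 3; fewer arrays and, with the block or covariate, fewer degrees of freedom entered those fits.

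The sample titles number the replicates and do not say whether arrays of the same number are paired. Deviations from the group means correlated at -0.48, -0.39 and -0.36 between arrays of the same number. No KI array correlated best with the WT array of its own number. With so few arrays per genotype these correlations cannot decide whether the samples are paired. Under the block 20 of the 23 calls were lost, and the cause of that loss was not tested. Of the 23 called members, 14 kept the call with each array left out in turn, and averaging the probe sets of a gene ended the calls of Snx9 (0.33) and Stx17 (0.21). Quantile normalization, a common median, a log2 addend of 32, the filter to genes above the median and the variance prior without trend ended none of the 23. All 23 lay above the median, so keeping them under the filter was nearly fixed in advance. Array medians already lay between 83.0 and 84.8, so a common median changed little.

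Sign changes are given for the members, the partner genes named above and the leading macrophage and osteoclast markers; other genes of the lists were not followed. Under older spike-in scaling they were Stx4a -0.25, Stx19 -0.37, Stx5a -0.27, Stx6 -0.41, Stx7 -0.16, Stx8 -0.082, Stx12 -0.29, Stx16 -0.19, Vamp1 -0.41, Vamp2 -0.38, Vamp4 -0.44, Vamp7 -0.35, Snap47 -0.50, Stxbp2 -0.18, Stxbp4 -0.45, Stxbp5 -0.045, Stxbp5l -0.44, Stxbp6 -0.45, Snx4 -0.39, Snx6 -0.37, Snx9 -0.15, Snx33 -0.035, Snx17 -0.36, Snx31 -0.29, Snx14 -0.42, Snx3 -0.15, Snx11 -0.35, Snx15 -0.16, Snx16 -0.31, Snx20 -0.44, Snx21 -0.19, Snx29 -0.0095, Vipas39 -0.19, Vps41 -0.037, Vps18 -0.35, Mtmr6 -0.14, Cd68 -0.33, Vps26b -0.25, Vps29 -0.37, Vps35 -0.38 and Bet1 -0.26. Under spike-in scaling they were Stx19 -0.048, Stx6 -0.088, Vamp1 -0.088, Vamp2 -0.058, Vamp4 -0.11, Vamp7 -0.027, Snap47 -0.18, Stxbp4 -0.12, Stxbp5l -0.11, Stxbp6 -0.14, Snx4 -0.065, Snx6 -0.044, Snx17 -0.041, Snx31 -0.012, Snx14 -0.092, Snx11 -0.025, Snx20 -0.12, Vps18 -0.028, Cd68 -0.011, Vps29 -0.042 and Vps35 -0.055. Without WT 1 and KI 1 they were Vamp2 -0.032, Snx1 0.070, Snx10 0.12, Snx12 0.12 and Snx22 0.15, with the covariate Snap47 -0.053, Snap91 0.056, Snx19 0.062 and Snx10 0.054, with the mean of all probe sets Stxbp5l -0.013 and Snx10 0.031, with quantile normalization Snx1 6.7e-05, Snx19 0.049, Snx10 0.023 and Snx12 0.0072, and with ambiguous probe sets left out Snx6 -0.31 and Mtmr3 -0.021. With 1 array left out, the genes that changed sign ranged as follows: Snap47 -0.028 to 0.10, Snx1 -0.051 to 0.042, Snx10 -0.086 to 0.13, Snx12 -0.057 to 0.059, Snx19 -0.053 to 0.0050, Snx22 -0.21 to 0.090 and Stxbp5l -0.015 to 0.18. The brighter Snx10 probe set was at 0.023 with quantile normalization, 0.054 with the covariate, 0.12 without WT 1 and KI 1, and -0.086 to 0.13 with 1 array left out. The dimmer one was at -0.14 under spike-in scaling, -0.47 under the older one, and -0.10 to 0.18 with 1 array left out. Spike-in and older spike-in scaling shift all values of an array together, which makes the sign changes under them; for the other settings, quantile normalization included, the cause was not tested.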
